A study of Drosophila melanogaster with 12 samples.

Results

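The comparison described here sets fat body RNA of larvae labelled EcR RNAi against that of control larvae, both reared on a high-sugar diet of 0.5 M sucrose. It takes the 6 libraries raised on that diet, 3 per genotype, of the 12 libraries in the series, and covers all 10047 genes of the deposited table. Both groups are offspring of mothers that carried UAS-Dcr2 and the fat body driver r4-GAL4. The EcRi libraries come from a cross to VDRC stock 37058, which carries UAS-EcR RNAi, and the controls, titled vw1118, from a cross to VDRC stock 60000. The allele w1118 is a mutation of the eye colour gene w. Larvae were female and were collected at the wandering stage of the third instar, so the controls share the driver and the Dcr2 transgene, and the RNAi acts wherever r4-GAL4 is active. The other 6 libraries, 3 EcRi and 3 control on 0.15 M sucrose, are used to ask whether a difference depends on the diet.

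The fat body stores fat, glycogen and protein for the larva, secretes most proteins of the blood, and makes immune peptides, so that it combines tasks of liver and adipose tissue. EcR is the nuclear receptor that, with its partner Ultraspiracle, binds the steroid ecdysone. Ecdysone pulses switch on a cascade of early regulators, end larval growth, and lead the fat body from feeding to autophagy and the uptake of stored protein. The comparison asks what the EcR RNAi label goes with in fat body gene expression when sugar is in excess.

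Each value is a normalised signal per gene and library, which is not scaled to transcript length, so levels are compared between libraries and never between genes. Fold changes are log2 differences of group means of log2(signal + 1), EcRi over control, given with their standard error (SE). A gene is called when limma's adjusted p (Benjamini-Hochberg over all genes) is under 0.05. On 0.5 M sucrose the signal sums ran from 8864826 to 10966639 in 5 libraries and came to 15045575 in control replicate 1. That library also deviated most from its group mean, by 0.415 (root mean square of log2 values), and results are given without it where this matters. Correlations of log2 values were 0.967 to 0.984 within groups and 0.938 to 0.953 across them. Separate crosses or animals per library are not stated in the labels, and the p-values cover only the spread among the libraries.

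The RNAi target itself did not separate the groups. EcR (FBgn0000546) had a signal of 1346, 1770.5 and 1125 in the EcRi libraries, against 1386, 1513 and 1463 in controls, and the groups overlapped (log2 fold change -0.06 ± 0.17 SE, 95% interval from -0.43 to 0.30, limma adjusted p = 0.847). The marker gene w (FBgn0003996), which RNAi transgenes usually carry, had 1694, 1698 and 1552 in EcRi libraries, against 1388, 780.3 and 834 in controls, with every EcRi library above every control (log2 fold change 0.77 ± 0.19 SE, limma adjusted p = 0.00796). Dcr-2 (FBgn0034246), whose transgene both genotypes received, had 86576, 70083 and 55220.0 in EcRi libraries, against 59190.0, 49933 and 41646 in controls, and the groups overlapped (log2 fold change 0.48 ± 0.23 SE, limma adjusted p = 0.174). The receptor's partner usp (FBgn0003964) was called lower, at 247, 218 and 224 in EcRi libraries, against 349, 288 and 301 in controls (log2 fold change -0.44 ± 0.15 SE, limma adjusted p = 0.0484). It lost that call in 9 of the 12 fits that left out 1 library, at limma adjusted p from 0.054 to 0.142 in those 9. Every direction given here is that of the EcRi label, not of a measured loss of the receptor.

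In all, 1915 of 10047 genes were called, 19.1% of those tested, with 1100 higher (10.9%) and 815 lower (8.11%) in EcRi libraries. Of these, 923 differed at least 2-fold, which is 9.19% of all genes. The median over all genes was -0.0023 on the log2 scale. The groups did not overlap for 35.6% of genes, 19.5% with the EcRi libraries higher and 16.1% with them lower. Of the 1915 calls, 1570 held in the same direction without control replicate 1, and 1142 held in each of the 6 fits that left out 1 library on 0.5 M sucrose. Scaling to a common upper quartile turned the split into 913 higher and 1043 lower, or 46.7% higher in place of 57.4%, and small changes are read with that in mind. In whole tissue, fewer cells of a type and less RNA per cell cannot be told apart.

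**Figure D1:**
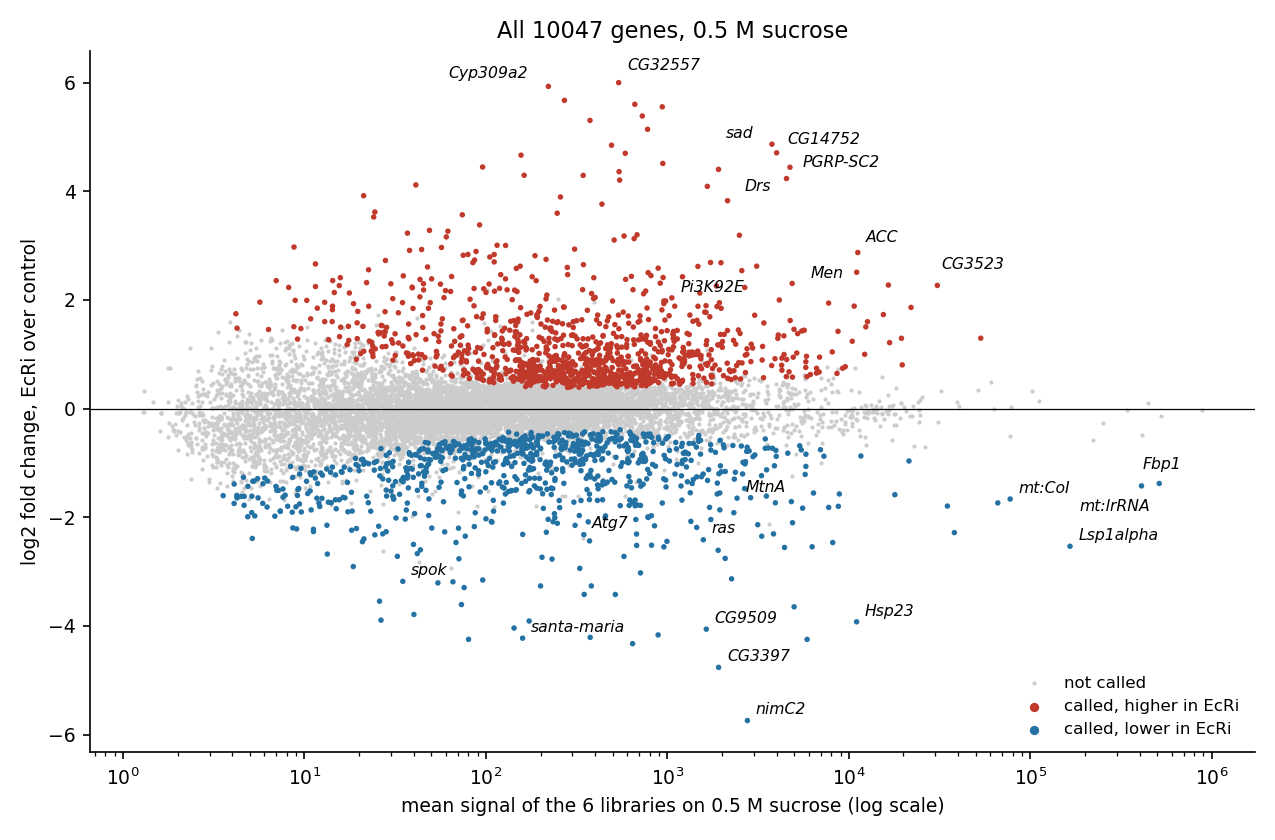
Log2 fold change (EcRi over control, y axis) against mean signal over the 6 libraries on 0.5 M sucrose (x axis, log scale) for 10047 genes, with called genes in red (1100 higher) and blue (815 lower). The largest differences reached 6.0 upwards at CG32557 and -5.74 downwards at nimC2, and both colours occur from low to high signal.

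The largest rises were in genes of very different kinds. CG32557 (FBgn0052557, current name Mco4), a gene of the multicopper oxidase family, had 1168, 723 and 1294 in EcRi libraries, against 10.3, 15.5 and 21.4 in controls (log2 fold change 6.0 ± 0.31 SE, limma adjusted p = 3.05e-08). Cyp309a2 (FBgn0041337), a cytochrome P450, had 277, 491 and 538 in EcRi libraries, against 10.3, 2.19 and 8.01 in controls (log2 fold change 5.93 ± 0.46 SE, limma adjusted p = 1.03e-06). For both, every EcRi library lay far above every control. The gene sad (FBgn0003312), the mitochondrial P450 shadow that acts late in ecdysone synthesis, had 7360.4, 6512 and 7988 in EcRi libraries, against 209, 226 and 322 in controls (log2 fold change 4.87 ± 0.24 SE, limma adjusted p = 2.46e-09). Immune-induced peptides of the Bomanin family, described below with the immune genes, and the cuticle protein gene Cpr47Eb at 4.45 ± 0.85 were also among the 15 largest rises. So was the neprilysin-like peptidase gene CG8358 (FBgn0037727, current name Nepl12) at 4.67 ± 0.25. The other 7, with no described function here, were CG11898 at 5.67 ± 0.60, CG13135 at 5.56 ± 0.62, CG10814 at 5.39 ± 0.37, CG1077 at 5.31 ± 0.62, CG1213 at 4.85 ± 0.37, CG14752 at 4.71 ± 0.16 and CG42369 at 4.51 ± 0.16 (limma adjusted p from 1.96e-11 to 0.00318 over these 9 genes).

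The largest falls included receptors, glue proteins and a tetraspanin. The gene nimC2 (FBgn0028939), a nimrod-family receptor gene, had 107, 103 and 84.2 in EcRi libraries, against 7052, 5287 and 3929 in controls (log2 fold change -5.74 ± 0.22 SE, limma adjusted p = 7.84e-11). CG9509 (FBgn0030594, current name fiz), an oxidoreductase gene known as fezzik, had 221, 183 and 147 in EcRi libraries, against 3952, 2798 and 2529 in controls (log2 fold change -4.06 ± 0.25 SE, limma adjusted p = 7.93e-08). Tsp42Ep (FBgn0033137), a tetraspanin, had 545, 848 and 702 in EcRi libraries, against 14471, 6029 and 7368 in controls (log2 fold change -3.65 ± 0.27 SE, limma adjusted p = 1.86e-07). None of the 3 genes had overlapping groups, and control replicate 1 was the highest of the 6 libraries for each. The mucin-type glycosyltransferase gene pgant4 differed by -4.04 ± 0.39. The genes CG3397, CG31100, CG15369, CG8850, CG10459 and CG4842, with no described function here, differed by -4.76, -4.33, -4.25, -3.91, -3.89 and -3.79 (log2, limma adjusted p from 6.63e-07 to 0.000104). The remaining 5 of the 15 largest falls, Hsp23, santa-maria, dro5, Sgs4 and Eig71Ee, are described with their groups. All 30 genes at both extremes kept their call in every fit that left out 1 library.

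Several enzymes that make fatty acids, and others that supply them with acetyl-CoA and NADPH, were higher in EcRi libraries. Of 21 fatty acid synthesis genes 6 were called, all of them higher, beside 10.9% higher and 8.11% lower among all genes. The list median was 0.35 against -0.0023 over all genes. ACC (FBgn0033246), which makes malonyl-CoA in the committed step, had 18722, 21972 and 18411 in EcRi libraries, against 3279.7, 2288 and 2563 in controls (log2 fold change 2.87 ± 0.22 SE, limma adjusted p = 1.60e-07). AcCoAS (FBgn0012034), which turns acetate into acetyl-CoA, had 22291, 24218 and 24481 in EcRi libraries, against 9794, 5568 and 6624 in controls (log2 fold change 1.73 ± 0.22 SE, limma adjusted p = 2.33e-05). The fatty acid synthase gene CG3523 (FBgn0027571) had 51979, 56212 and 44599 in EcRi libraries, against 11480.0, 9774 and 10402 in controls (log2 fold change 2.27 ± 0.23 SE, limma adjusted p = 3.08e-06). In these 3 genes every EcRi library lay above every control. A second synthase gene, v(2)k05816 (FBgn0042627, current name FASN2), differed by 1.43 ± 0.29 and Men (FBgn0002719), malic enzyme and a source of NADPH, by 2.51 ± 0.21 (limma adjusted p = 0.00234 and 4.57e-07). Zw (FBgn0004057), the glucose-6-phosphate dehydrogenase that opens the pentose phosphate pathway, had 526, 785 and 591 in EcRi libraries, against 193, 217 and 224 in controls (log2 fold change 1.56 ± 0.19 SE, limma adjusted p = 1.83e-05). Not every gene of the route followed, since ATP citrate lyase ATPCL differed by 0.38 ± 0.18 and the desaturase desat1 by 0.30 ± 0.25, neither of them called (limma adjusted p = 0.181 and 0.46).

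Among genes of triglycerides and lipid droplets more were called higher than lower, and among genes of lipid transport more were called lower. The first list holds lipase genes as well as genes of triglyceride assembly. Of 20 triglyceride and lipid droplet genes 6 were called higher and 1 lower (median 0.09), with 2 lower without control replicate 2 or control 0.15 M replicate 3. The acyltransferase gene fu12 (FBgn0026718, current name Agpat2), of phosphatidic acid synthesis, had 1383, 1666 and 1484 in EcRi libraries, against 408, 201 and 340.1 in controls (log2 fold change 2.31 ± 0.27 SE, limma adjusted p = 4.20e-05). The diacylglycerol acyltransferase mdy and Seipin, which shapes lipid droplets, differed by 0.82 ± 0.20 and 0.89 ± 0.22, while a further acyltransferase gene, CG4729 (FBgn0036623, current name Agpat3), was lower at -0.70 ± 0.16 (limma adjusted p from 0.0051 to 0.00734). Of 23 lipid transport genes 5 were called lower and 2 higher (median -0.15), with 4 higher without control replicate 1. Both lists stand beside 10.9% called higher and 8.11% called lower among all genes. CG3394 (FBgn0034999, current name Fatp3), a fatty acid transport protein gene, had 581, 531 and 441 in EcRi libraries, against 5258, 3020.0 and 2661 in controls (log2 fold change -2.76 ± 0.25 SE, limma adjusted p = 1.92e-06). The gene santa-maria (FBgn0025697), a scavenger receptor that takes up carotenoids, had 11.1, 21.5 and 13.2 in EcRi libraries, against 334, 378 and 198 in controls (log2 fold change -4.23 ± 0.50 SE, limma adjusted p = 0.000156). Neither gene had overlapping groups. The lipocalins NLaz and Karl were lower at -1.46 ± 0.26 and -1.53 ± 0.35, as was the sterol-binding family gene Npc2f at -1.12 ± 0.26, and the lipid transfer particle gene CG15828 (FBgn0032136, current name Apoltp) was higher at 1.25 ± 0.21 (limma adjusted p from 0.000479 to 0.00934).

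Some enzymes of sugar use were higher as well, and more of them were called without control replicate 1. Of 17 glycolysis genes, a list that includes the glycerol-3-phosphate branch, 6 were called, all higher (median 0.54), and 11 without that library. The share called higher among all genes was 10.9%. Hex-C (FBgn0001187), a fat body hexokinase, had 246, 164 and 144 in EcRi libraries, against 29.4, 24.5 and 22.0 in controls (log2 fold change 2.79 ± 0.22 SE, limma adjusted p = 2.46e-07). PyK (FBgn0003178), the pyruvate kinase of the last step, had 5624, 5769 and 5896 in EcRi libraries, against 2562, 2117 and 2395 in controls (log2 fold change 1.29 ± 0.18 SE, limma adjusted p = 6.35e-05). The groups of both genes lay apart. Cytosolic and mitochondrial glycerol-3-phosphate dehydrogenase, Gpdh (FBgn0001128, current name Gpdh1) and Gpo-1 (FBgn0022160, current name Gpo1), were higher at 1.26 ± 0.23 and 1.196 ± 0.22, and Hex-A at 0.75 ± 0.17 (limma adjusted p from 0.000889 to 0.0037). Gluconeogenesis and trehalose synthesis pointed the same way at Pepck (FBgn0003067, current name Pepck1), the phosphoenolpyruvate carboxykinase, with 81448, 75196 and 68322 in EcRi libraries, against 44641, 24961 and 25331 in controls (log2 fold change 1.297 ± 0.23 SE, limma adjusted p = 0.000747). Tps1 (FBgn0027560), which makes the blood sugar trehalose, had 17369, 19227 and 17667 in EcRi libraries, against 9922, 4743 and 5485 in controls (log2 fold change 1.505 ± 0.24 SE, limma adjusted p = 0.000214). CG33138 (FBgn0053138, current name AGBE), the glycogen branching enzyme, was higher at 1.04 ± 0.23 (limma adjusted p = 0.00363). Only Tps1 and CG33138 were called of the 12 glycogen and trehalose genes, 4 without control replicate 1.

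Regulators that read sugar and nutrients differed too. The gene sug (FBgn0033782), the sugar-induced zinc finger factor sugarbabe, had 1229, 1261 and 1110.5 in EcRi libraries, against 329.9, 263 and 243 in controls (log2 fold change 2.11 ± 0.26 SE, limma adjusted p = 6.12e-05). Mio (FBgn0032940, current name Mondo), the partner of Mlx in sensing glucose-6-phosphate, had 2058, 1580.1 and 1408 in EcRi libraries, against 783, 828 and 676 in controls (log2 fold change 1.13 ± 0.18 SE, limma adjusted p = 0.000246). Both genes lay apart between the groups, whereas the activin ligand daw (FBgn0031461), a target of that sensor, was lower, with 642, 737 and 661 in EcRi libraries, against 1911, 1105 and 1106 in controls (log2 fold change -0.97 ± 0.19 SE, limma adjusted p = 0.0017). Both cytokines named here act through JAK/STAT and were higher, os (FBgn0004956, current name upd1) at 35.4, 44.4 and 37.5 in EcRi libraries, against 3.66, 8.33 and 6.17 in controls (log2 fold change 2.56 ± 0.39 SE, limma adjusted p = 0.000173) and upd3 by 2.97 ± 0.53 (limma adjusted p = 0.000675). Of 19 genes on this list 6 were called higher and 3 lower, against 10.9% and 8.11% of all genes. The 3 became 1 without control replicate 1 or without any single EcRi library on 0.5 M.

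Of 27 insulin and TOR genes 11 were called higher and 2 lower (median 0.31), against 10.9% higher and 8.11% lower among all genes. Pi3K92E (FBgn0015279), the catalytic subunit of phosphoinositide 3-kinase, had 1741, 1681 and 1687 in EcRi libraries, against 425, 413 and 403 in controls (log2 fold change 2.04 ± 0.13 SE, limma adjusted p = 1.61e-08). S6k (FBgn0015806), the kinase downstream of TOR, had 679.7, 661 and 609 in EcRi libraries, against 288, 278 and 294 in controls (log2 fold change 1.18 ± 0.14 SE, limma adjusted p = 1.15e-05). Neither gene had overlapping groups. Some genes that restrain the pathway were higher beside some that drive it. Sestrin, Sesn (FBgn0034897), differed by 1.44 ± 0.15 and the insulin-binding protein ImpL2 by 1.13 ± 0.18. The TSC2 homologue gig differed by 0.65 ± 0.14, scyl by 0.87 ± 0.16 and CG13624 (FBgn0039209, current name REPTOR), a transcription factor active when TOR is low, by 1.13 ± 0.20 (limma adjusted p from 4.00e-06 to 0.00348 over these 5). The gene foxo (FBgn0038197), the transcription factor that insulin signalling keeps out of the nucleus, had 516, 459.6 and 472 in EcRi libraries, against 1094, 844 and 853 in controls (log2 fold change -0.94 ± 0.14 SE, limma adjusted p = 0.000142). CG18619 (FBgn0032202, current name REPTOR-BP), the partner of CG13624, was lower at -0.93 ± 0.18 (limma adjusted p = 0.00163). The 11 higher genes became 7 without EcRi replicate 2, 8 with upper quartile scaling and 7 after quantile normalisation. Insulin-like peptide Ilp6 (FBgn0044047), made by the fat body, had overlapping groups (log2 fold change -0.23 ± 0.16 SE, limma adjusted p = 0.35).

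Several transcripts made inside mitochondria were lower in EcRi libraries, on a list drawn up after their values had been seen. Of 14 mitochondrially encoded genes 9 were called, all lower, and all 14 had a negative log2 fold change (median -1.62). The transcript mt:CoI (FBgn0013674), a subunit of cytochrome c oxidase, had 29314, 41803 and 39002 in EcRi libraries, against 149810.0, 84596 and 120080.0 in controls (log2 fold change -1.66 ± 0.28 SE, limma adjusted p = 0.00046). The transcript mt:Cyt-b (FBgn0013678), of the cytochrome bc1 complex, had 10852, 19559 and 14635 in EcRi libraries, against 83821, 31147 and 49591 in controls (log2 fold change -1.79 ± 0.36 SE, limma adjusted p = 0.00194). The transcript mt:ATPase6 (FBgn0013672), of ATP synthase, had 3193, 3745 and 4276 in EcRi libraries, against 20243, 8456 and 12584 in controls (log2 fold change -1.799 ± 0.31 SE, limma adjusted p = 0.000598). Control replicate 1 was the highest library for each of these genes, but the other controls also lay above all 3 EcRi libraries. The remaining called members, mt:CoII, mt:CoIII, mt:ND4, mt:ND5, mt:ATPase8 and mt:lrRNA, ran from -2.01 at mt:ATPase8 to -1.42 at mt:lrRNA (log2, limma adjusted p from 0.00116 to 0.0185). Ribosomal RNA is what the RiboZero step is meant to remove. The large ribosomal RNA mt:lrRNA was -0.92 (adjusted p = 0.0434) without control replicate 1, -1.16 (adjusted p = 0.106) without EcRi replicate 1 and -1.42 (adjusted p = 0.0541) without EcRi replicate 3 (limma). The list had 9 calls without control replicate 1, with a median of -1.20, and between 8 and 13 without any other library on 0.5 M. As a share of each library's signal, mitochondrially encoded genes took 2.31%, 3.75% and 3.47% in EcRi libraries, against 10.3%, 5.67% and 8.61% in controls. On 0.15 M sucrose the order was not the same, with 12.0%, 10.1% and 8.26% in EcRi libraries, against 9.28%, 7.28% and 6.84% in controls.

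**Figure D2:**
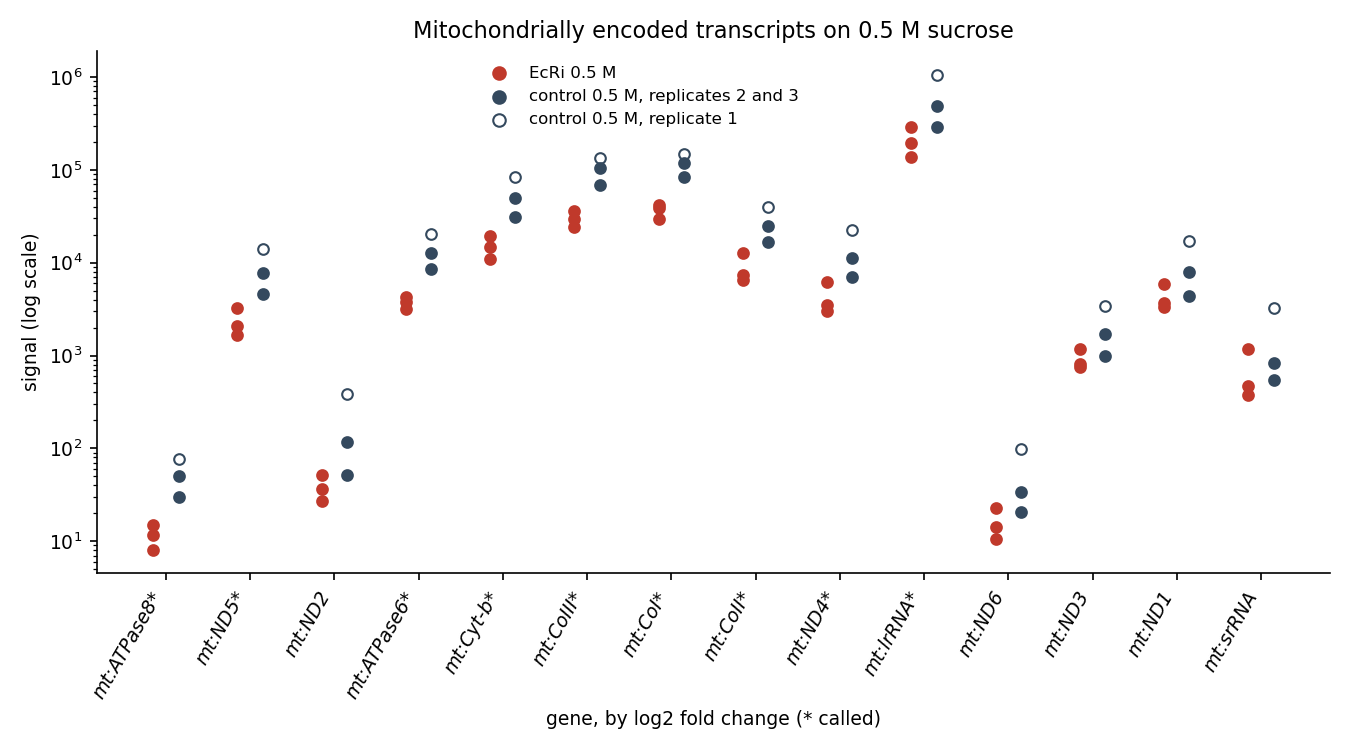
Signal (y axis, log scale) of the 14 mitochondrially encoded genes in the 3 EcRi libraries (red, left) and the 3 controls (dark, right; open circle, control replicate 1) on 0.5 M sucrose, ordered by log2 fold change, with called genes starred. In the 9 called genes every control lies above every EcRi library.

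Nuclear genes of mitochondria, also listed after values were seen, were called in both directions. Of 65 nuclear genes of the respiratory chain and ATP synthase 5 were called, all lower (median -0.04), a share of members near the 8.11% lower among all genes. Small subunit genes led them. Ucrh (FBgn0260008, current name UQCR-11), of the cytochrome bc1 complex, had 198, 195 and 227 in EcRi libraries, against 535, 374 and 476 in controls (log2 fold change -1.14 ± 0.22 SE, limma adjusted p = 0.0016). The complex I genes CG40002 (FBgn0058002, current name ND-AGGG) and CG34439 (FBgn0085468, current name ND-MWFE) differed by -0.99 ± 0.22 and -0.69 ± 0.17 (limma adjusted p = 0.00374 and 0.00782). The 5 lower genes became 3 without control replicate 1, control replicate 3, EcRi replicate 1, EcRi replicate 3, EcRi 0.15 M replicate 3 or control 0.15 M replicate 2, and 8 without control replicate 2, while 5 members were called higher without control replicate 1. The 6 called genes of 19 on the TCA cycle list were all higher (median 0.22), beside 10.9% called higher among all genes. That list also holds CG1970 (FBgn0039909, current name ND-49), a complex I gene. Nc73EF (FBgn0010352, current name Ogdh), of the 2-oxoglutarate dehydrogenase complex, had 1815, 1852 and 1569.8 in EcRi libraries, against 936, 831 and 904 in controls (log2 fold change 0.97 ± 0.15 SE, limma adjusted p = 0.000238). SdhA (FBgn0261439), the flavoprotein of succinate dehydrogenase, had 984, 845 and 889 in EcRi libraries, against 513, 570.2 and 584 in controls (log2 fold change 0.70 ± 0.13 SE, limma adjusted p = 0.00078). These 2 genes had groups that lay apart, but the count of 6 became 3 without control replicate 2, 2 without control replicate 3 and 2 without EcRi replicate 1. EcRi replicate 1 also had the highest summed signal of 13 muscle markers, 86385 against 30695 to 46647 in the other 5 libraries, and the part of muscle RNA in these calls was not tested.

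Some genes of amino acid and purine metabolism differed widely, in both directions. Of 33 genes of amino acid breakdown and conversion 5 were called lower and 3 higher (median 0.07). Among all genes 8.11% were called lower and 10.9% higher. Oat (FBgn0022774), ornithine aminotransferase, had 1746, 1184 and 949 in EcRi libraries, against 8788, 5348 and 5055 in controls (log2 fold change -2.31 ± 0.30 SE, limma adjusted p = 5.75e-05). Gs1 (FBgn0001142), the mitochondrial glutamine synthetase, had 3785, 3488 and 2869 in EcRi libraries, against 15719, 10703 and 9888 in controls (log2 fold change -1.82 ± 0.24 SE, limma adjusted p = 3.33e-05). On the other side were 3 genes. Cbs (FBgn0031148), cystathionine beta-synthase, had 1420.0, 1777 and 1379 in EcRi libraries, against 305, 209 and 249.9 in controls (log2 fold change 2.59 ± 0.20 SE, limma adjusted p = 1.86e-07). Sam-S (FBgn0005278), which makes S-adenosylmethionine, differed by 1.62 ± 0.23 and the serine racemase gene CG8129 (FBgn0037684, current name Srr) by 1.63 ± 0.30 (limma adjusted p = 8.11e-05 and 0.00187). The 3 higher genes became 9 without control replicate 1 and 5 without EcRi replicate 2, and the 5 lower genes became 3 without control replicate 2, control replicate 3 or EcRi replicate 2. Of 14 genes of purine synthesis and urate 6 were called lower and 1 higher (median -0.55), the higher one losing its call without control replicate 2, control replicate 3 or EcRi replicate 2. The gene ras (FBgn0003204), the IMP dehydrogenase of the guanine branch, had 471, 522 and 472 in EcRi libraries, against 3462, 2502 and 2036 in controls (log2 fold change -2.41 ± 0.19 SE, limma adjusted p = 2.41e-07). CG16758 (FBgn0035348), a predicted purine nucleoside phosphorylase, had 1509, 1490.0 and 1151 in EcRi libraries, against 5434, 3525 and 2882 in controls (log2 fold change -1.47 ± 0.23 SE, limma adjusted p = 0.000203). The count of lower genes was between 4 and 6 without any 1 library on 0.5 M.

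**Figure D3:**
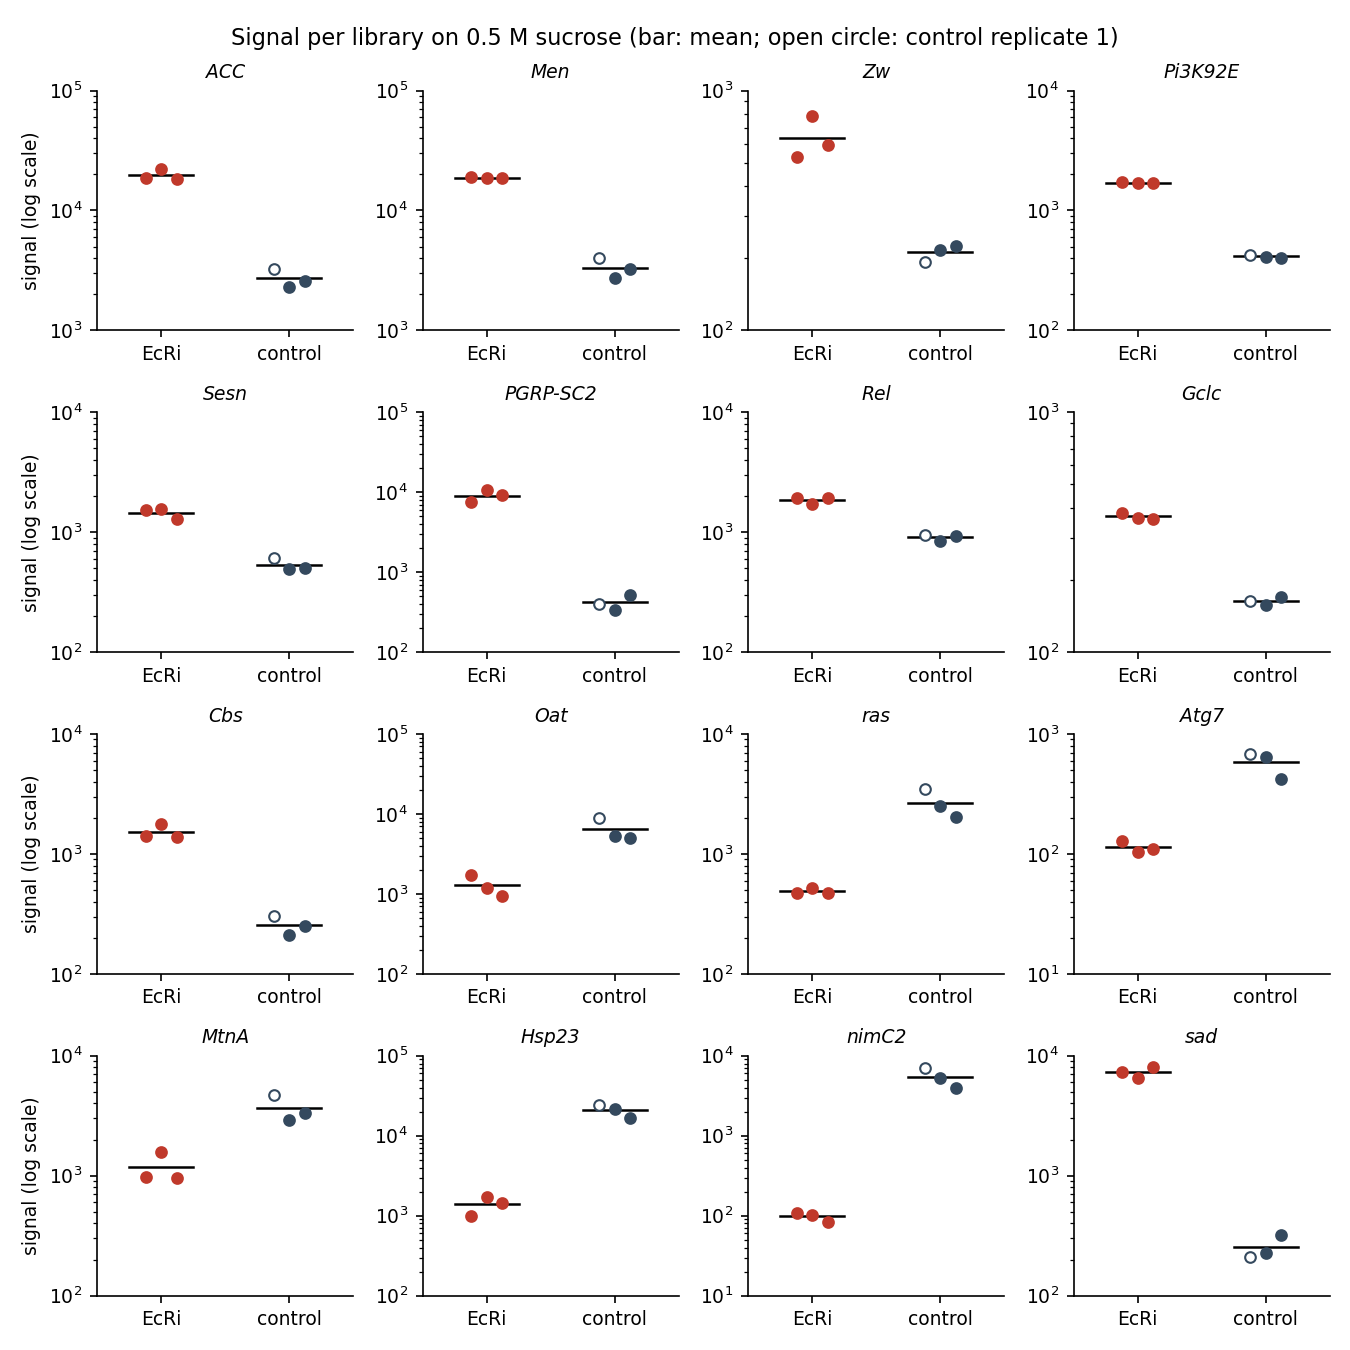
Signal (y axis, log scale) in the 3 EcRi libraries (red, left) and the 3 controls (dark, right; open circle, control replicate 1) on 0.5 M sucrose for 16 genes of the text, with a bar at the group mean. In every panel the groups do not overlap, and nimC2 and sad show the widest gaps.

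Detoxification families had members called in both directions. Of 75 genes on the cytochrome P450 list 16 were called higher and 11 lower (median 0.12), against 10.9% and 8.11% of all genes. That list also holds CG8336 (FBgn0036020, current name Cyp40) and Cyp1 (FBgn0004432), which are cyclophilin genes and not P450s. Cyp6a22 (FBgn0013773) had 969, 1044 and 938 in EcRi libraries, against 264, 139.6 and 180.1 in controls (log2 fold change 2.38 ± 0.21 SE, limma adjusted p = 6.66e-07). Cyp4d14 (FBgn0023541) was higher at 2.62 ± 0.26, and Cyp4d1 (FBgn0005670) was lower, with 2996, 2135 and 2064 in EcRi libraries, against 21026, 9313 and 11369 in controls (log2 fold change -2.47 ± 0.28 SE, limma adjusted p = 1.62e-05). Cyp6g1 (FBgn0025454), the P450 whose overexpression gives DDT resistance in this fly, was lower at -1.55 ± 0.24 (limma adjusted p = 0.000177). The 11 lower genes became 7 without EcRi replicate 3. Glutathione transferases counted 5 higher and 6 lower of 29, and the 6 became 2 or 3 without any 1 library on 0.5 M. GstE9 (FBgn0063491) had 984, 989.5 and 1225 in EcRi libraries, against 257, 140.4 and 207 in controls (log2 fold change 2.43 ± 0.19 SE, limma adjusted p = 2.46e-07). GstD10 (FBgn0042206) was lower at -2.72 ± 0.51 (limma adjusted p = 0.00527). UDP-glycosyltransferases, which attach sugars to toxins and hormones, counted 7 higher and 1 lower of 22, with 7 higher without any 1 library on 0.5 M and 0 lower without control replicate 2, EcRi replicate 2 or EcRi replicate 3. Of these Ugt35a (FBgn0026315, current name Ugt35A1) differed by 2.41 ± 0.26 and Ugt86Da (FBgn0040259, current name Ugt302C1) by 1.34 ± 0.21 (limma adjusted p = 1.34e-05 and 0.000178).

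Genes of glutathione synthesis and metal handling were also among those called. Gclc (FBgn0040319), the limiting enzyme of glutathione synthesis, had 381, 363 and 360.0 in EcRi libraries, against 164, 157 and 171 in controls (log2 fold change 1.16 ± 0.14 SE, limma adjusted p = 1.50e-05). The peroxiredoxin genes Prx2540-1 (FBgn0033520, current name Prx6b) and Prx2540-2 (FBgn0033518, current name Prx6c) were higher at 1.71 ± 0.31 and 2.29 ± 0.34 (limma adjusted p = 0.00077 and 0.000284), though as close copies they may share reads. Of 25 metal genes 7 were called higher and 5 lower (median 0.04), against 10.9% and 8.11% of all genes. The factor MTF-1 (FBgn0040305), known to switch on metallothioneins, had 445, 471 and 436 in EcRi libraries, against 217, 182 and 159.7 in controls (log2 fold change 1.28 ± 0.14 SE, limma adjusted p = 6.58e-06). The metallothionein MtnA (FBgn0002868) went the other way, with 982, 1590.5 and 958 in EcRi libraries, against 4718, 2909 and 3362 in controls (log2 fold change -1.65 ± 0.22 SE, limma adjusted p = 4.99e-05). So did MtnD at -1.36 ± 0.32 and MtnE at -1.19 ± 0.26 (limma adjusted p = 0.00874 and 0.00358). The metal transporter genes CG4334 (FBgn0038312, current name Zip88E) and ZnT35C were lower at -2.03 ± 0.19 and -1.202 ± 0.18, and CG7816 (FBgn0039714, current name Zip99C), of the same family as the first, was higher at 1.11 ± 0.16 (limma adjusted p from 1.34e-06 to 0.000164). Members of the list called higher included transferrin Tsf1 (FBgn0022355) at 1.6 ± 0.29, the ferritin light chain Fer2LCH at 0.84 ± 0.17 and mitoferrin mfrn at 0.69 ± 0.13 (limma adjusted p from 0.000903 to 0.00188).

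**Figure D4:**
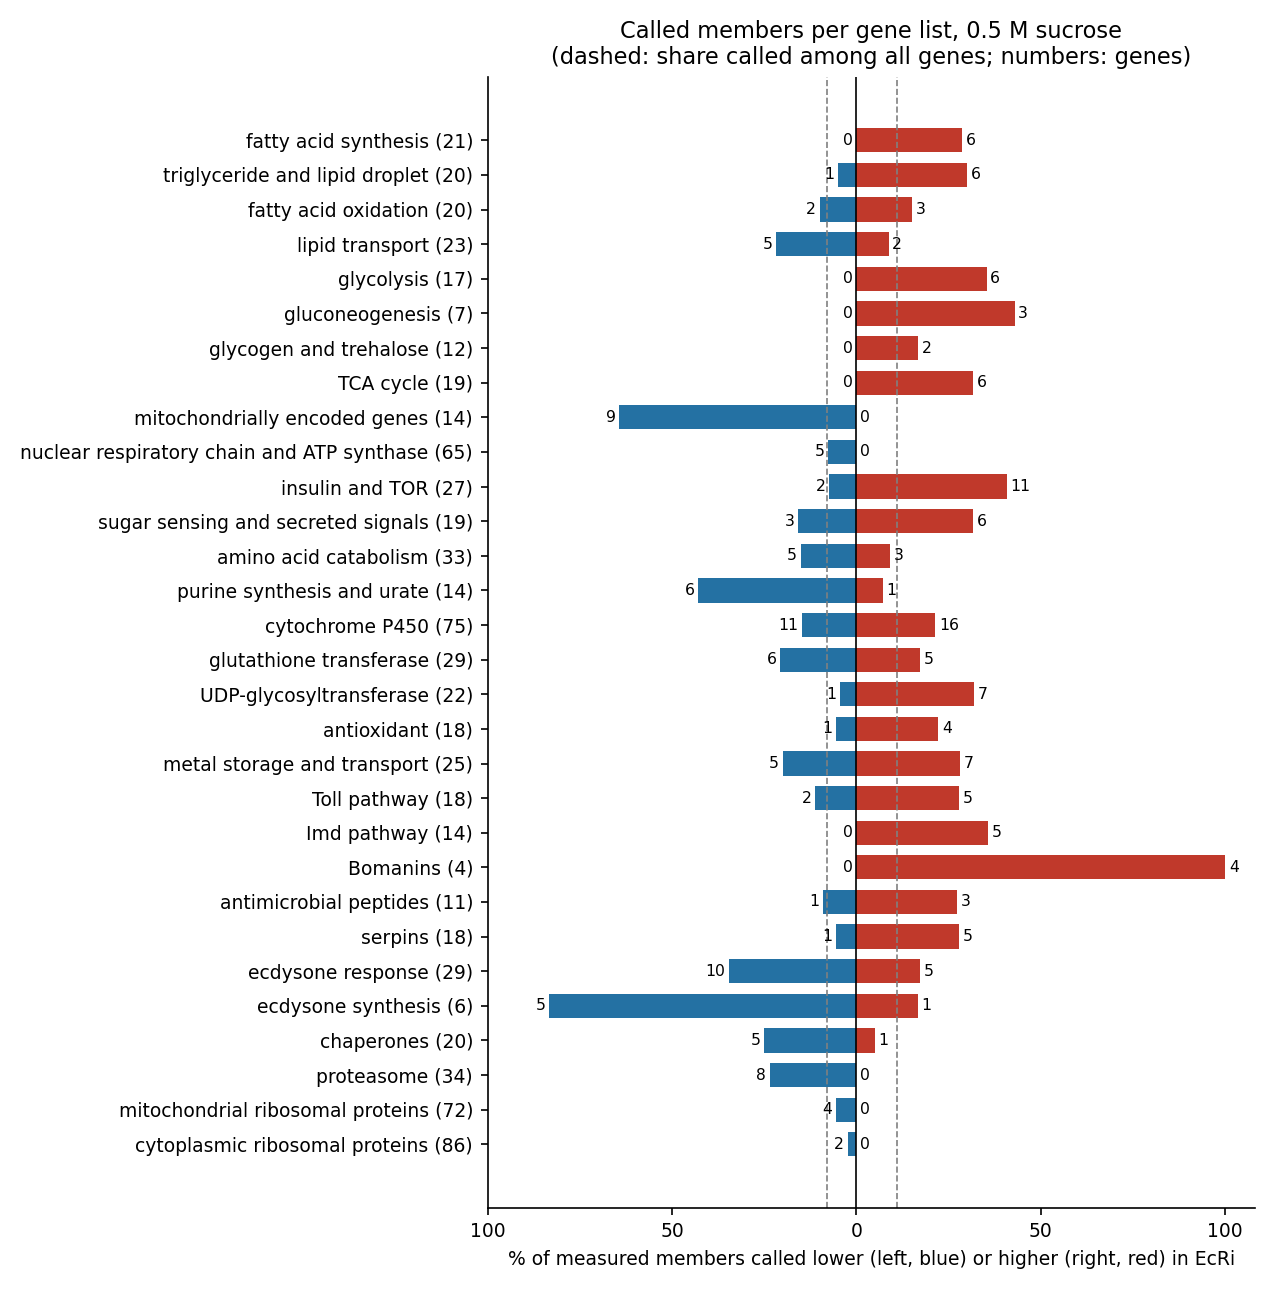
Share of measured members (x axis, %) called lower (blue, left) or higher (red, right) in EcRi libraries on 0.5 M sucrose for 30 gene lists of the text, with the number measured in brackets and the number called at each bar. Dashed lines mark the shares among all genes, 8.11% lower and 10.9% higher, and the mitochondrially encoded genes and the Bomanins stand furthest from them among lists called in 1 direction.

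Immune genes formed a further large group, from receptors to effectors. All 4 measured Bomanins, short secreted peptides made on infection, were called higher. IM3 (FBgn0040736, current name BomS3) had 1630.0, 1978 and 921 in EcRi libraries, against 77.2, 19.0 and 42.3 in controls (log2 fold change 5.14 ± 0.57 SE, limma adjusted p = 0.000239). The others, CG15068 (FBgn0040733, current name BomS6), CG16836 (FBgn0040735, current name BomT2) and CG15065 (FBgn0040734, current name BomS5), differed by 5.602 ± 0.42, 4.699 ± 0.57 and 3.28 ± 0.50 (limma adjusted p from 5.97e-06 to 0.00035). Close copies in this family may share reads. Of 11 antimicrobial peptide genes 3 were called higher and 1 lower, against 10.9% and 8.11% of all genes. Drs (FBgn0010381), drosomycin, had 7902, 11005 and 6909 in EcRi libraries, against 631, 384 and 369 in controls (log2 fold change 4.23 ± 0.24 SE, limma adjusted p = 6.57e-09). The related dro5 (FBgn0035434, current name Drsl5) had 5.06, 2.30 and 13.9 in EcRi libraries, against 96.5, 293 and 70.1 in controls (log2 fold change -4.25 ± 0.66 SE, limma adjusted p = 0.0011). The stress peptide genes TotA and TotC were higher at 1.86 ± 0.27 and 3.2 ± 0.46 (limma adjusted p = 0.000102 and 0.000809). The peptide genes Dpt, a target of the Imd pathway, and Mtk, induced by Toll and Imd, were not called, at -1.57 ± 0.97 and -0.81 ± 0.39 (limma adjusted p = 0.32 and 0.186).

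Upstream of these effectors, Toll components counted 5 higher and 2 lower of 18 (1 lower without EcRi replicate 1 or EcRi replicate 3) and Imd components 5 higher of 14. For comparison, 10.9% of all genes were called higher and 8.11% lower. GNBP1 (FBgn0040323), a recognition protein that feeds the Toll cascade, had 1511, 1739 and 1506 in EcRi libraries, against 446, 231 and 252 in controls (log2 fold change 2.41 ± 0.20 SE, limma adjusted p = 5.02e-07). The fungal sensor GNBP3 (FBgn0040321) was lower at -1.203 ± 0.21 (limma adjusted p = 0.000469). The ligand gene spz, the receptor Tl and the NF-kappaB factor dl were higher at 1.297 ± 0.26, 1.102 ± 0.15 and 0.76 ± 0.18 (limma adjusted p from 6.32e-05 to 0.00578). Rel (FBgn0014018), the NF-kappaB factor of the Imd pathway, had 1946, 1706 and 1912 in EcRi libraries, against 944, 844 and 935 in controls (log2 fold change 1.03 ± 0.13 SE, limma adjusted p = 3.31e-05). The feedback inhibitor pirk (FBgn0034647) had 68.7, 76.9 and 82.3 in EcRi libraries, against 23.3, 17.0 and 21.2 in controls (log2 fold change 1.85 ± 0.28 SE, limma adjusted p = 0.000135). Both lay apart between the groups, and the Imd count of 5 became 3 without control replicate 2, EcRi replicate 1 or EcRi replicate 3. PGRP-SC2 (FBgn0043575), an amidase that degrades peptidoglycan, had 7495, 10511 and 9162 in EcRi libraries, against 399, 335 and 521 in controls (log2 fold change 4.44 ± 0.25 SE, limma adjusted p = 1.02e-08). PGRP-LB, of the same activity, and the receptor PGRP-LC were higher at 1.6 ± 0.14 and 0.87 ± 0.17, and PGRP-SB1 was lower at -3.61 ± 0.36 (limma adjusted p from 7.42e-07 to 0.00145). Serpins counted 5 higher and 1 lower of 18, beside the same shares of all genes, with Spn43Ad at 1.67 ± 0.31 and Spn43Ab at 1.36 ± 0.28 (limma adjusted p = 0.00146 and 0.00227).

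Blood cells also express immune genes, and 10 hemocyte markers had a summed signal of 9425 to 11527 in EcRi libraries, against 6474 to 8681 in controls. Without Pxn, left out after its values were seen, the other 9 summed to 4424 to 5032 in EcRi libraries, against 3795 to 5640 in controls, and the groups overlapped. The median log2 fold change of the 10 markers was -0.08, with 6 of them below 0. Of these markers 2 were called higher, and the scavenger receptor crq (FBgn0015924), at 0.54 ± 0.16 (limma adjusted p = 0.0274), lost its call without control replicate 2, control replicate 3 or any single EcRi library, at adjusted p from 0.0559 to 0.101. The other, Pxn (FBgn0011828), a matrix peroxidase, had 6496, 5372 and 4981 in EcRi libraries, against 2679.6, 3041 and 3088 in controls (log2 fold change 0.93 ± 0.17 SE, limma adjusted p = 0.000799). The hemocyte marker Hml and the phagocytosis receptor eater had overlapping groups, at -0.16 ± 0.39 and 0.29 ± 0.43 (limma adjusted p = 0.829 and 0.701). None of the 10 markers was at 0 in any library, and the part of blood cell RNA in the immune differences was not tested. Engulfment and scavenger receptor genes outside that list went both ways, with drpr (FBgn0027594), draper, at 0.89 ± 0.16, the CD36 family gene emp (FBgn0010435) at 1.38 ± 0.15 and nimC2 at the lower extreme (limma adjusted p = 0.000621 and 6.47e-06 for the first 2).

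Ecdysone response genes had more members called lower than higher, 10 against 5 of 29 (median -0.15), beside 8.11% lower and 10.9% higher among all genes. Lists can share genes, and on this one Hsp23 and Hsp27 are also counted as chaperones and ImpL2 among insulin and TOR genes. Eip75B (FBgn0000568) and Eip78C (FBgn0004865), nuclear receptors of the early response, had 655, 742 and 894 and 106, 135 and 117 in EcRi libraries, against 2179, 1849.6 and 1902 and 403, 425 and 335 in controls. Their log2 fold changes were -1.38 ± 0.17 and -1.69 ± 0.17 (limma adjusted p = 2.22e-05 and 2.74e-06). The gene br (FBgn0000210), the broad zinc finger factor, had 2351, 3079 and 2969.8 in EcRi libraries, against 4229, 5378 and 5873 in controls (log2 fold change -0.88 ± 0.18 SE, limma adjusted p = 0.00192), and Eip74EF differed by -0.74 ± 0.15 (limma adjusted p = 0.00229). The groups lay apart for all 4 genes, while ftz-f1 (FBgn0001078), a competence factor of the prepupa, was higher at 1.27 ± 0.27 and the ecdysone-inducible ImpL1 at 2.41 ± 0.49 (limma adjusted p = 0.00296 and 0.002). The 5 higher genes became 3 without control replicate 1, control replicate 2 or EcRi replicate 3. Among other nuclear receptors Hr78 (FBgn0015239) was lower at -0.90 ± 0.13 and Hnf4 (FBgn0004914) and svp (FBgn0003651), receptors tied to lipid use, were higher at 0.61 ± 0.15 and 0.75 ± 0.16 (limma adjusted p from 9.54e-05 to 0.0069).

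All 6 measured enzymes of ecdysone synthesis were called, sad higher as above and the other 5 lower. The gene shd (FBgn0003388), which makes the active hormone in tissues such as fat body, had 515, 547 and 376 in EcRi libraries, against 1506, 865 and 980.3 in controls (log2 fold change -1.195 ± 0.20 SE, limma adjusted p = 0.000354). The genes spok (FBgn0086917), phm (FBgn0004959, current name phtm) and sro (FBgn0262112), known from the ring gland, differed by -3.18 ± 0.44, -1.52 ± 0.31 and -0.97 ± 0.19 (limma adjusted p from 0.000158 to 0.00344). The gene nvd (FBgn0259697), the last of the 5, had 1.02, 3.22 and 2.35 in EcRi libraries, against 4.49, 6.95 and 33.4 in controls (log2 fold change -1.91 ± 0.61 SE, limma adjusted p = 0.0382), and its adjusted p was 0.0507 to 0.198 without control replicate 3, EcRi 0.15 M replicate 1 or any EcRi library on 0.5 M. The ring gland marker list shares 5 of these genes, so ring gland RNA in the libraries cannot be told apart from fat body expression of them. The juvenile hormone receptor genes gce and Met were higher at 0.67 ± 0.15 and 0.54 ± 0.15, but Met lost its call without control replicate 3, EcRi replicate 1 or EcRi replicate 3 (limma adjusted p from 0.0593 to 0.0748).

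Among genes of chaperones, the proteasome and mitochondrial ribosomes more were called lower than higher. Of 20 chaperone genes 5 were called lower and 1 higher (median -0.35), against 8.11% and 10.9% of all genes. Without control replicate 1, 8 chaperone genes were called lower. Hsp23 (FBgn0001224) had 985, 1711 and 1449.7 in EcRi libraries, against 23921, 21546 and 16601 in controls (log2 fold change -3.92 ± 0.33 SE, limma adjusted p = 1.03e-06). Hsp26, Hsp27 and Hsp68 differed by -2.19 ± 0.33, -2.005 ± 0.28 and -1.68 ± 0.29 (limma adjusted p from 0.000145 to 0.000885). The higher one was Hsp70Bb at 0.73 ± 0.15, a gene with near-identical copies that may share reads, and 2 genes were higher without control replicate 3, EcRi replicate 2 or EcRi 0.15 M replicate 3 (limma adjusted p = 0.0022). Of 34 proteasome genes 8 were called, all lower, and 32 had a negative log2 fold change (median -0.38), against a median of -0.0023 over all genes. The groups lay apart, EcRi lower, for 23 of the 34, against 16.1% of all genes. Rpn12 (FBgn0028693), a lid subunit, had 474, 566 and 562 in EcRi libraries, against 992, 758 and 821 in controls (log2 fold change -0.68 ± 0.15 SE, limma adjusted p = 0.00413). These differences were small, and the 8 calls became 5 without control replicate 3, 1 without EcRi replicate 1, 3 without EcRi replicate 2 and 4 without EcRi replicate 3, and 16 with upper quartile scaling. Of 72 mitochondrial ribosomal protein genes 63 had a negative log2 fold change (median -0.27), but 4 were called lower, a share below the 8.11% of all genes. That count was 8 with upper quartile scaling and 1 or 2 without control replicate 1, control replicate 3, EcRi replicate 1 or EcRi replicate 2.

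Storage, matrix, breakdown and clock genes each had called members. Lsp1alpha (FBgn0002562), a larval serum protein, had 72790.0, 51650.0 and 28527 in EcRi libraries, against 355840.0, 242510.0 and 241410.0 in controls (log2 fold change -2.53 ± 0.37 SE, limma adjusted p = 0.000127). Fbp1 (FBgn0000639), the receptor for serum protein uptake, had 214760.0, 409790.0 and 233840.0 in EcRi libraries, against 1034100.0, 649750.0 and 538210.0 in controls (log2 fold change -1.38 ± 0.32 SE, limma adjusted p = 0.00603). The groups lay apart for both genes and overlapped for the other 4 of the 6 genes on that list. Atg7 (FBgn0034366), the activating enzyme of autophagy, had 127, 103 and 109 in EcRi libraries, against 678, 639 and 421 in controls (log2 fold change -2.32 ± 0.22 SE, limma adjusted p = 1.47e-06). It was the 1 autophagy gene called lower of 23, and Atg4 and Atg13 were among 3 higher at 1.28 ± 0.15 and 0.78 ± 0.13 (limma adjusted p = 1.42e-05 and 0.000485). These counts stand beside 8.11% called lower and 10.9% called higher among all genes. The lysosomal protease Cp1 (FBgn0013770, current name CtsL1) had 15128, 17808 and 17368 in EcRi libraries, against 6114, 3792 and 3989 in controls (log2 fold change 1.89 ± 0.21 SE, limma adjusted p = 6.65e-06). Basement membrane genes counted 6 higher and 1 lower of 12 (median 0.43), with LanA at 0.74 ± 0.17 (limma adjusted p = 0.00463), but 3 higher without control replicate 3 or EcRi replicate 1 and 0 lower without any 1 library on 0.5 M. Clock genes counted 3 higher and 1 lower of 10, and between 0 and 1 lower without any 1 library on 0.5 M. The higher ones were per (FBgn0003068) at 1.95 ± 0.36, Pdp1 (FBgn0016694) at 1.53 ± 0.24 and cwo (FBgn0259938) at 0.60 ± 0.13 (limma adjusted p from 0.00027 to 0.00318). Among genes of high signal, CG31075 (FBgn0051075) was lower at -2.28 ± 0.27, and CG43085 (FBgn0262531) was higher at 1.29 ± 0.33 but was not called without control replicate 1 (adjusted p = 0.0571) or control replicate 2 (adjusted p = 0.0518, limma).

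Whether the EcRi difference on 0.5 M sucrose depended on the diet was tested as that difference minus the one on 0.15 M. This contrast called 394 genes, 3.92% of those tested, 260 with a larger value on 0.5 M (2.59%) and 134 with a smaller one (1.33%). Pi3K92E (FBgn0015279) was among the first, with 2.04 ± 0.13 on 0.5 M and 0.52 ± 0.13 on 0.15 M (difference 1.52 ± 0.18, limma adjusted p = 0.000502). Mio differed by 1.13 ± 0.18 on 0.5 M and -0.14 ± 0.18 on 0.15 M (difference 1.26 ± 0.25, limma adjusted p = 0.0122). Rel and pirk behaved alike, with differences between diets of 1.19 ± 0.19 and 1.85 ± 0.39 (limma adjusted p = 0.00334 and 0.0163). In the other direction, 8 of the 14 mitochondrially encoded genes had a smaller value on 0.5 M, as with mt:ATPase6, at -1.799 ± 0.31 on 0.5 M and 0.74 ± 0.31 on 0.15 M (difference -2.53 ± 0.44, limma adjusted p = 0.00726). MtnA, Hsp68 and spok were of this kind, with differences of -1.91 ± 0.31, -2.21 ± 0.41 and -4.08 ± 0.62 (limma adjusted p from 0.00415 to 0.0121). Ilp6 and Thor, a translation repressor, were not called on 0.5 M, at -0.23 ± 0.16 and -0.28 ± 0.24. On 0.15 M, where 6.19% of all genes were called higher and 5.01% lower (11.2% in all), both were lower, at -2.02 ± 0.16 and -2.03 ± 0.24 (limma adjusted p = 2.83e-07 and 2.70e-05). Their differences between diets were 1.79 ± 0.22 and 1.75 ± 0.34 (limma adjusted p = 0.000581 and 0.0121).

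The largest such differences upwards were those of CG1077, CG14515, CG5697, CG10814, CG11898 and CG9451, from 2.99 ± 0.36 at CG9451 to 4.33 ± 0.87 at CG1077. Downwards they were those of spok, CG15369, CG42715, CG15919, CG9150 and CG1722, from -3.02 ± 0.65 at CG1722 to -4.08 ± 0.62 at spok (limma adjusted p from 0.000549 to 0.0362 over the 12 genes). CG9150 was not called on 0.5 M by itself, at -1.07 ± 0.46, and CG42715, at -1.89 ± 0.49, was not called without EcRi replicate 3 (adjusted p = 0.0522, limma). Among genes not called in this contrast were ACC, at 2.87 ± 0.22 on 0.5 M and 2.19 ± 0.22 on 0.15 M, and Cbs, at 2.59 ± 0.20 and 2.48 ± 0.20 on the same diets (limma adjusted p of the difference = 0.208 and 0.876). Among EcRi libraries, leaving out 0.5 M replicate 1 gave 141 genes in place of 394, 0.5 M replicate 3 gave 248, 0.15 M replicate 1 gave 242 and 0.15 M replicate 2 gave 151. Among controls, leaving out 0.5 M replicate 3 gave 183, 0.15 M replicate 2 gave 183 and 0.15 M replicate 3 gave 239.

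**Figure D5:**
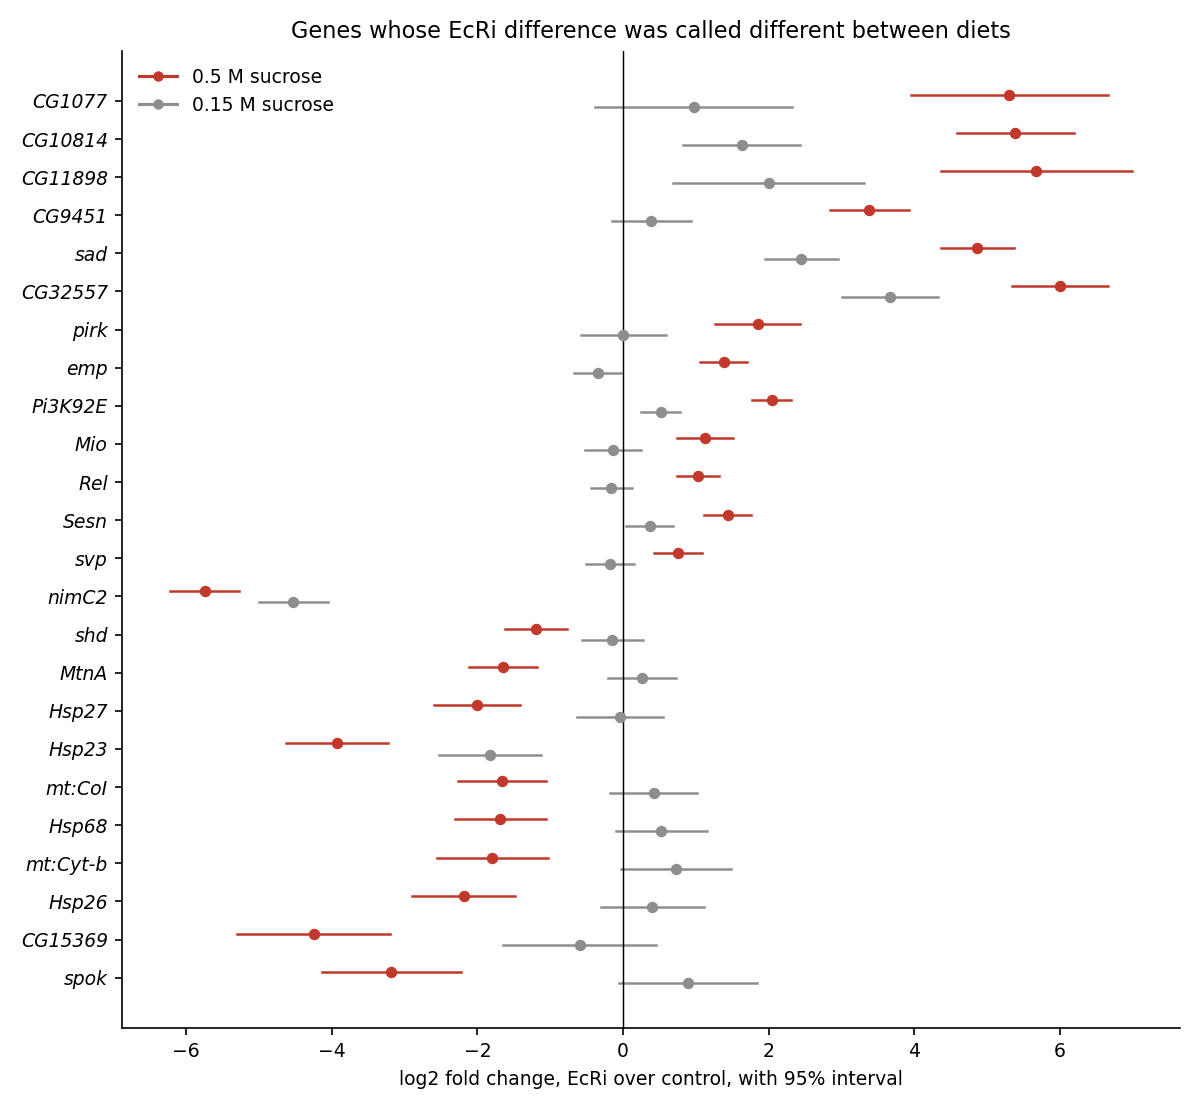
Log2 fold change (EcRi over control, x axis) with its 95% interval on 0.5 M sucrose (red) and 0.15 M sucrose (grey) for 24 genes whose difference between diets was called. For mt:CoI, mt:Cyt-b, Hsp26, Hsp68, MtnA and spok the estimates lie below 0 on 0.5 M and above 0 on 0.15 M.

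Markers of other tissues were present in all libraries and none was at 0. The 8 fat body markers had a summed signal of 1653930 to 2110300 in EcRi libraries, against 1954530 to 3411930 in controls. The 9 salivary gland markers summed to 2752 to 8059 in EcRi libraries, against 7824 to 31894 in controls, with 4 called lower, among them Sgs4 (FBgn0003374) at -4.21 ± 0.70 and Eig71Ee (FBgn0004592) at -4.17 ± 0.77 (limma adjusted p = 0.00268 and 0.00482), and 1 higher. The 4 became 2 without control replicate 3 or EcRi replicate 3. Of 13 muscle and 8 nervous system markers 0 were called by limma and 0 had an unadjusted p under 0.05, although 1 nervous system marker was called without control replicate 1 or control replicate 3. Of 10 markers of trachea and epidermis 0 were called and 1 was lower at an unadjusted p under 0.05, with sums of 12042 to 17705 in EcRi libraries, against 19114 to 19918 in controls. Of 8 midgut and 6 Malpighian tubule markers 1 and 2 were called lower, beside 8.11% of all genes, the midgut one being Npc2f, given above with lipid transport. The part of such tissues in the genes above, and in their differences between diets, was not tested.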

How the data were processed

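Normalised signal values of 10047 genes in 12 libraries were deposited by the authors as 1 table. Dissected fat bodies were sheared and centrifuged, and their RNA was taken up in Trizol, treated with DNase, depleted of ribosomal RNA with RiboZero and sequenced on an Illumina HiSeq, per the labels' protocols. The tools named, without roles, per the submitters' processing notes are edgeR, Cufflinks 1.1.0, Bowtie 0.12.7 and TopHat 1.3.2. Genome build, annotation, strand setting, normalisation and gene filter are not given in the sources used here. Values are not whole and do not fall on whole multiples of 1 step in every library, so read depth is unknown and no count model was used, although the design foresaw one for counts. Without a stated strand setting, overlapping antisense genes cannot be separated.

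Values were transformed as log2(signal + 1), which understates changes of low genes (928 of 10047 genes had a mean under 10). All genes passed a minimum mean of 1 over the 12 libraries. limma 3.58.1 in R 4.3.3 fitted all 12 libraries in 4 groups with a trended, robust empirical Bayes step, two-sided, with Benjamini-Hochberg adjustment over all 10047 genes, and the fit was tested on simulated data. Figures were drawn with matplotlib 3.10.9 in Python 3.11.15. Genes were named by rule as follows. For size of change, the 15 called genes at each end of the log2 fold changes were taken, given a higher group mean of 10 or more and no overlap of the groups. For signal, the 8 non-overlapping called genes per direction with the largest difference of group means were taken, and for diet the 6 per direction with the largest interaction. List members with the smallest p were added, with EcR, usp, w and Dcr-2 as checks. Other list members were picked after their values were seen, as were Ilp6, Thor, ATPCL, desat1, Dpt, Mtk, Hml and eater. The genes compared and all lists were chosen with earlier results of these data known. Alternatives changed the pseudocount, the filter, the scaling, the library weights, the empirical Bayes step, the replicate block and the libraries included. Gonad markers, none of which the table lists, 1 gene that met the rule on signal, and lists not named in the text are not reported here.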

Additional observations from a re-analysis of the deposited data

Results flagged for a closer look

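The EcRi difference was called different between the diets, by the test of the difference itself, for 50 of the genes named in the report. These calls come from the fit of all 12 libraries and were not rechecked gene by gene with a library left out. With 1 library left out, the whole contrast called 141 to 532 genes in place of 394. Each value here is the log2 fold change on 0.5 M sucrose minus that on 0.15 M, with limma's Benjamini-Hochberg adjusted p under 0.05.

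Genes with a larger value on 0.5 M sucrose included regulators of nutrient and immune signalling. In insulin and TOR signalling these were Pi3K92E at 1.52, Sesn at 1.07, gig at 0.91, S6k at 0.89 and, with no call on 0.5 M itself, Ilp6 at 1.79 and Thor at 1.75. In metabolism they were the sugar sensor Mio at 1.26, Men at 1.11, Gpo-1 at 1.496, the receptor emp at 1.73 and the nuclear receptor svp at 0.93. In the Imd pathway they were pirk at 1.85 and Rel at 1.19. The others were CG1077 at 4.33, CG14515 at 4.32, CG5697 at 4.04, CG10814 at 3.76, CG11898 at 3.68, CG9451 at 2.99, sad at 2.42 and CG32557 at 2.33.

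Genes with a smaller value on 0.5 M sucrose included mitochondrial transcripts and small heat shock proteins. The mitochondrially encoded ones were mt:CoI at -2.08, mt:CoII at -2.02, mt:CoIII at -2.26, mt:ND4 at -2.34, mt:ND5 at -2.69, mt:ATPase6 at -2.53, mt:ATPase8 at -2.48 and mt:Cyt-b at -2.52. The nuclear respiratory chain genes were Ucrh at -1.63, CG40002 at -1.44 and CG34439 at -1.12. The chaperones were Hsp23 at -2.101, Hsp26 at -2.59, Hsp27 at -1.96 and Hsp68 at -2.21. Ecdysone synthesis gave spok at -4.08, phm at -2.34 and shd at -1.05, and metal handling gave MtnA at -1.91 and ZnT35C at -1.26. Others were nimC2 at -1.21, PGRP-SB1 at -1.99, Tsp42Ep at -1.55, CG43085 at -2.65, CG1722 at -3.02, CG9150 at -3.08, CG15919 at -3.42, CG42715 at -3.48 and CG15369 at -3.65.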

How the results depend on the processing

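With library weights 3628 genes were called on 0.5 M sucrose, 1971 higher and 1657 lower, and 526 list members in place of the 290 called with equal weights. In that setting control replicates 1, 2 and 3 on 0.5 M had weights of 0.24, 0.83 and 5.89, so their group rested mostly on replicate 3. That setting gave 1546 genes for the difference between diets, 914 higher and 632 lower. The same contrast gave 139 higher and 209 lower with upper quartile scaling and 149 in all, 85 higher and 64 lower, with neither trend nor robust step. Replicate numbers did not mark shared deviations (correlations 0.031, -0.081 and 0.165), and the fit with the replicate block called 1028 genes higher and 785 lower on 0.5 M and, for the difference between diets, 260 genes, 161 higher. The 6 libraries on 0.5 M alone gave 921 higher and 653 lower, and with the block 834 and 582. Leaving out each library on 0.5 M in turn gave 1318 to 1954 genes on 0.5 M (771 to 1200 higher, 547 to 768 lower), 165 to 169 of the 171 called genes named in the text, 213 to 336 list members, and leaving out each of the 12 gave 141 to 532 genes for the difference between diets (89 to 377 higher, 52 to 212 lower). Signs turned only for genes not called: Hml ran from -0.43 without control replicate 1 to 0.018 without control replicate 2 and 0.045 without EcRi replicate 2, EcR ran from -0.24 without EcRi replicate 2 to 0.088 without EcRi replicate 3, and Thor was 0.077 with library weights. The cause of these shifts was not tested. Upper quartile scaling moved the median of all genes to -0.080, and all 171 called genes named in the text kept their call and direction under it. With 3 libraries per group and an unknown depth, small changes of genes with low signal are the least certain.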
